A study of Rattus norvegicus with 8 samples.

Results

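The miR-29 family was followed through the postnatal development of rat pancreatic islets. All non-control array features named for miR-29a, miR-29b or miR-29c, or for a product of the other arm of their hairpins (marked with an asterisk on the array), were taken as members. These are rno-miR-29a, rno-miR-29b, rno-miR-29c, rno-miR-29c*, rno-miR-29a*, rno-miR-29b-1* and rno-miR-29b-2*, written below without the species prefix. They are 7 of the 677 rat miRNAs on the array and were measured by 20 of 1644 probes and 140 of 13540 features. Total RNA of islets from Sprague Dawley rats was hybridised to 1-colour Agilent miRNA arrays, 4 from rats 10 days old (P10) and 4 from male rats 3 months old (adult). The source labels of both ages call the rats control animals, and no allele, drug or other agent is named for either. The labels give neither the sex of the P10 rats nor the number of animals behind each array, so sex and age cannot be told apart and p-values measure the spread between these samples. Beta-cell maturation is the question that the series title gives for this comparison.

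A miRNA hairpin is cut into a short duplex of which 1 strand, or sometimes each strand, is loaded into an Argonaute protein and guides it to messenger RNAs, mainly through the seed near its 5′ end. The mature miR-29 forms share 1 seed and are best known as repressors of extracellular matrix genes such as collagens, elastin and fibrillin. They also act on DNA methyltransferases. In beta cells, the insulin-secreting cells of the islet, miR-29 is known to repress the monocarboxylate transporter Mct1, one of the genes that are normally kept off in these cells.

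The 3 mature forms are shown because their shared seed (bases 2 to 8, in capitals) defines the family and because the array has to tell them apart by few bases. They are written 5′ to 3′ from RefSeq (GRCr8), in which all 7 products of the array were found.
rno-miR-29a-3p: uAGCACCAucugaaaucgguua
rno-miR-29b-3p: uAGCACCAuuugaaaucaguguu
rno-miR-29c-3p: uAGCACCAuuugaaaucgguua
The seed AGCACCA is held by 3 of 693 rat mature names in that table, the 3 above. With positions counted from 1 at the 5′ end, miR-29c and miR-29a differ by U10C and have 21 of 22 bases in common. miR-29c and miR-29b differ by G18A, U21G and A22U over the 22 bases compared, and miR-29b has 1 base more. miR-29a and miR-29b differ by C10U, G18A, U21G and A22U. How far a probe for 1 of these forms also takes up another was not tested. The mature miR-29b comes in identical form from 2 genes, Mir29b1 and Mir29b2, so the array gives their sum.

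The products of the other arm do not share the family's seed. They are shown because the array measures them as separate miRNAs, with a seed each (capitals) that no other of the 693 names holds.
rno-miR-29a-5p, miR-29a* on the array: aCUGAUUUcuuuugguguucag
rno-miR-29b-1-5p, miR-29b-1* on the array: uUUCAUAUggugguuuagauuu
rno-miR-29b-5p, miR-29b-2* on the array: cUGGUUUCacaugguggcuuag
rno-miR-29c-5p, miR-29c* on the array: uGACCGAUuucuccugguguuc
The hairpin of Mir29c is given with both arms in capitals, since it is the gene of which both arms could be tested here.
Mir29c hairpin: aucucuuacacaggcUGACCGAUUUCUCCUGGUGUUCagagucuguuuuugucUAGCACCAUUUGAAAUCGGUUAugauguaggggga
It is 88 bases long, with the miR-29c* arm at bases 16 to 37 and the miR-29c arm at bases 54 to 75. In RefSeq the 4 hairpin genes form 2 pairs of neighbours, Mir29a with Mir29b1 and Mir29b2 with Mir29c. A single annotated gene lies between each pair, Mir3587 in the first and Mir3556b in the second. Their products miR-3587 and miR-3556b were detected by the scanner software on 0 of 8 arrays, as was miR-3556a, which has a similar name.

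The arrays shared 1 slide, on which the 4 P10 arrays filled 1 column and the 4 adult arrays the next, so age cannot be told apart from the place on the slide. The 75th percentile of bright probes, by which each array was scaled, was between 388 and 1690 intensity units on P10 arrays and between 1284 and 1677 on adult arrays. It was lowest on P10 replicates 1 and 2. Both islet markers, miR-375 and miR-7a, were well above background on all 8 arrays. Their summed log2 level was 3.48 to 4.57 in P10 and 5.34 to 5.54 in adult. miR-7a differed by 1.85 and was called in 21 of 24 alternatives. For miR-375 the difference was 0.47 (limma adjusted p = 0.0485). It was called in 5 of 24 alternatives and its sign turned in 3, to -0.41 in the authors' value table. Of 3 acinar markers, miR-216a and miR-217 were summed, with -0.35 and -0.66 on P10 replicates 1 and 2. Their sum was -4.09 and -4.51 on replicates 3 and 4, and -2.36 to -1.33 in adult. The other, miR-216b-5p, is not in that sum. Its log2 difference was -0.47 (limma adjusted p = 0.657), against 0.61 for miR-216a and 0.51 for miR-217, and none of the 3 was called. All 3 gut epithelial markers (miR-192, miR-194, miR-215) were called lower in adult (as were 20.2% of all tested miRNAs), with a sum of 0.14 to 3.75 in P10 and of -1.83 to -0.98 in adult, and miR-215 was well above background on 0 adult arrays. The erythroid markers miR-451 and miR-144 were both called higher in adult (as were 27.3% of all tested miRNAs), miR-144 in 9 of 23 alternatives, with its sign turned under normexp. They summed to -2.77 to -1.98 in P10 and to -0.84 to -0.62 on adult replicates 1 to 3, while adult replicate 4 lay within the P10 range. Mesenchymal, endothelial and leukocyte sums overlapped between the ages (2.09 to 2.88 against 2.35 to 2.83, 1.23 to 2.23 against 1.55 to 1.73, and -0.47 to 1.87 against 0.31 to 0.66), although 3 of 5 mesenchymal markers were lower and 1 was higher. The 3 muscle markers were not well above background on any array. The part of these shifts in the miR-29 values was not tested, and in whole islets a change in cell numbers and a change in RNA per cell cannot be told apart.

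Adult islets held more miR-29a, miR-29b, miR-29c and miR-29c* than P10 islets relative to the bulk of measured miRNAs, with differences between 4.06-fold and 12.1-fold. With cyclic loess over all probes the calls of miR-29a, miR-29b and miR-29c were lost (0.84, 1.37 and 1.14 in log2, limma adjusted p of 0.157, 0.159 and 0.142), and with normexp the difference of miR-29c* was 0.73. Under the scaling used here miR-29b changed most, and the mature forms miR-29a and miR-29c changed by similar amounts. With cyclic loess over all probes miR-29c* changed most of the 4, by 1.49 (limma adjusted p = 0.0199). Of the 238 miRNAs tested, 47.5% were called in either direction. All 4 of these products were called higher, where 27.3% of tested miRNAs were called higher in adult (limma, Benjamini-Hochberg adjusted p under 0.05 over all 238) and the median difference was -0.01. The same 4 had every adult array above every P10 array, as had 25.6% of the tested miRNAs. At least a 4-fold increase among the called was reached by 4.2% of the tested miRNAs, and the 4 miR-29 products were among these 10. The other 3 members, miR-29a*, miR-29b-1* and miR-29b-2*, were too dim to be tested.

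miR-29b, the form made from 2 genes, had a processed signal (scanner intensity after background subtraction) of 387, 564, 1431 and 3862 in P10 (replicates 1 to 4, here and below) and of 22380, 23558, 31358 and 22078 in adult. After scaling, the log2 level (0 being the array's own 75th percentile) was -0.0048, 0.36, 0.53 and 1.19 in P10 and 4.05, 4.07, 4.22 and 4.10 in adult. The adult arrays lay close together and far above the P10 arrays, among which replicate 4 was highest and replicate 1 lowest. The mean went from 0.52 ± 0.50 to 4.11 ± 0.08 (SD, n = 4 per age), a log2 difference of 3.59 (95% interval 3.05 to 4.14, limma adjusted p = 1.63e-05) or 12.1-fold.

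miR-29a, from the gene next to Mir29b1, had processed signals of 806, 990, 1725 and 4375 in P10 and of 18856, 18398, 23288 and 16895 in adult. Its scaled log2 level was 1.05, 1.17, 0.80 and 1.37 in P10 and 3.80, 3.72, 3.80 and 3.72 in adult. The ages did not overlap, and the P10 replicates stood closer to each other than for miR-29b. The mean was 1.10 ± 0.24 in P10 and 3.76 ± 0.05 in adult (SD, n = 4 per age). This is a log2 difference of 2.66 (95% interval 2.35 to 2.97, limma adjusted p = 7.87e-06), or 6.31-fold.

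miR-29c, which differs from miR-29a by the single base given above, had processed signals of 251, 295, 910 and 1744 in P10 and of 7156, 7050, 8623 and 6485 in adult. Its scaled log2 level was -0.63, -0.57, -0.12 and 0.05 in P10 and 2.40, 2.33, 2.36 and 2.34 in adult. P10 replicates 1 and 2 were below replicates 3 and 4, and all were far below the adult arrays. The mean was -0.32 ± 0.33 in P10 and 2.36 ± 0.03 in adult (SD, n = 4 per age). The log2 difference was 2.68 (95% interval 2.29 to 3.07, limma adjusted p = 1.63e-05), or 6.40-fold.

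miR-29c*, the strand opposite miR-29c in the same hairpin, had a processed signal of 13.7, 20.8, 43.5 and 83.6 in P10 and of 231, 244, 310 and 231 in adult. It was well above background on all 4 adult arrays but on 2 of 4 P10 arrays, replicates 3 and 4. Its scaled log2 level was -4.82, -4.40, -4.51 and -4.34 in P10 and -2.55, -2.52, -2.44 and -2.48 in adult, again without overlap. The mean went from -4.52 ± 0.22 to -2.50 ± 0.05 (SD, n = 4 per age), a log2 difference of 2.02 (95% interval 1.73 to 2.31, limma adjusted p = 1.63e-05) or 4.06-fold. With 2 P10 arrays not well above background this size is uncertain. With normexp background correction the difference was 0.73. That setting adds an offset of 50 intensity units to every feature, which by itself lowers the difference of a product as dim as this.

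**Figure D1:**
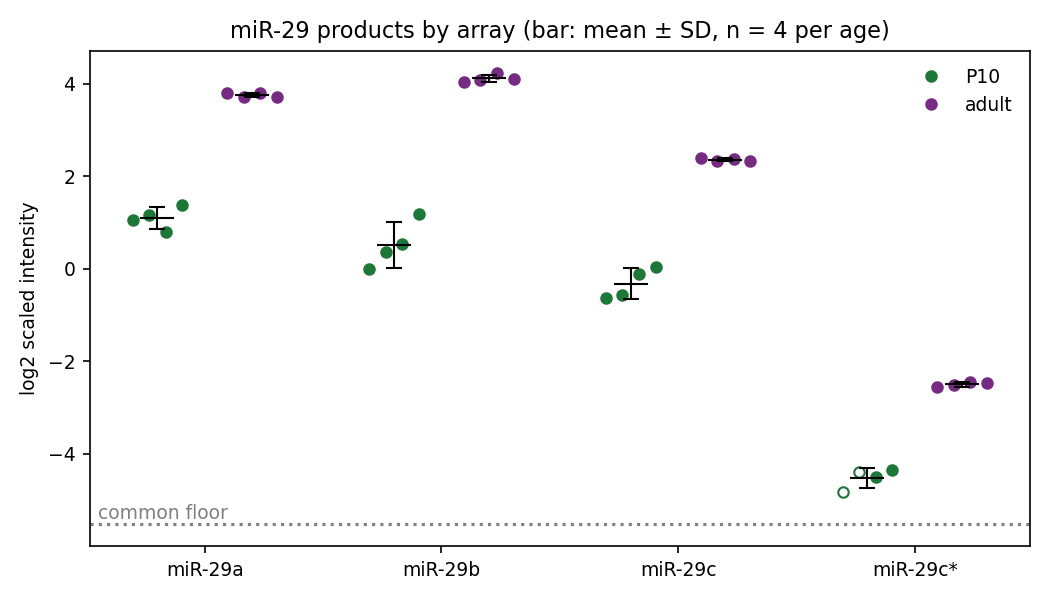
Log2 scaled intensity of the 4 tested miR-29 products on each array, with P10 in green, adult in purple, bars for mean ± SD (n = 4 per age) and open circles where a product was not well above background. For each product the adult arrays lie together above all P10 arrays, and miR-29c* in P10 lies near the common floor (dotted line). The levels of different products are not comparable, since each has its own probe.

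The other 3 products of the family were at the edge of detection or below it. miR-29a* had a processed signal of 5.12, 7.15, 9.74 and 16.5 in P10 and of 34.1, 27.7, 39.5 and 36.6 in adult. It was well above background on 0 of 4 P10 and 3 of 4 adult arrays, all but replicate 2. Its scaled adult mean, -5.34 ± 0.16 (SD, n = 4), was below the mean of the lowest signals well above background on the P10 arrays (-4.85), so no fold is given. miR-29b-1* and miR-29b-2*, the opposite strands from the 2 genes of miR-29b, were well above background on none of the 8 arrays. These strands therefore do not show from which of the 2 genes the adult miR-29b came.

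Among the 238 tested miRNAs, the differences of miR-29b, miR-29c and miR-29a ranked 1, 2 and 3 from the top, and that of miR-29c* ranked 10.

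**Figure D2:**
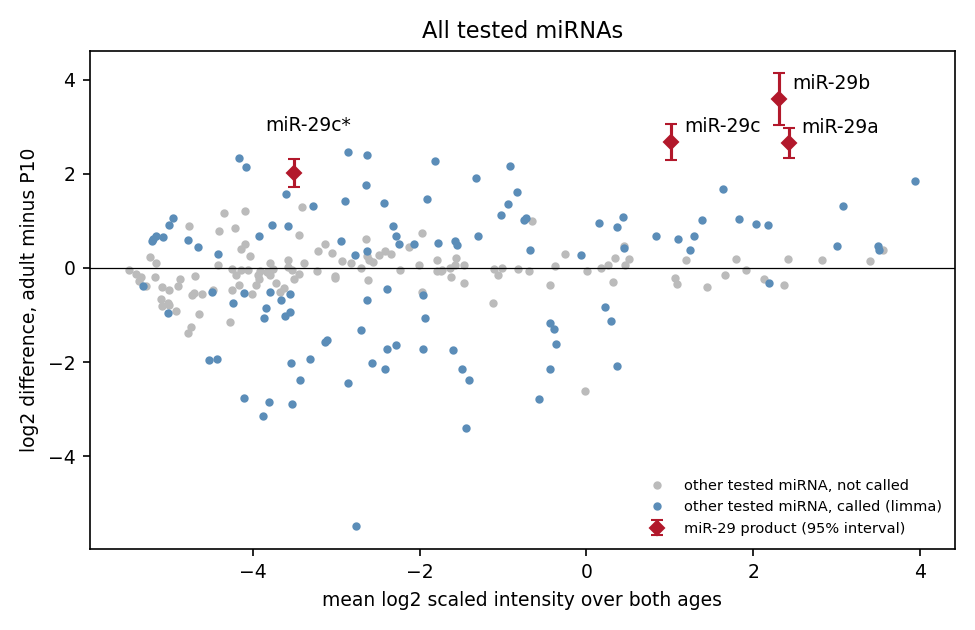
Log2 difference (adult minus P10) of the 238 tested miRNAs against their mean log2 scaled intensity over both ages, with called miRNAs in blue, others in grey and miR-29 products in red with 95% intervals. miR-29b at 3.59 is the highest point, followed by miR-29c at 2.68 and miR-29a at 2.66, and miR-29c* is at 2.02.

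The same shift was read without any scaling from the rank of each product among the 677 miRNAs of its own array, by the scanner's total gene signal (rank 1 is the brightest). miR-29b ranked 49, 37, 34 and 21 in P10 and 2 on every adult array. miR-29a ranked 28, 27, 30 and 20 in P10 and 5, 5, 4 and 4 in adult. miR-29c ranked 53, 52, 41 and 36 in P10 and 11, 11, 11 and 12 in adult. Each of the 3 mature forms thus ranked 12 or better on every adult array and 20 or worse on every P10 array. miR-29c* went from 222, 204, 183 and 183 to 110, 109, 105 and 110. For these 4 the exact two-sided permutation p over arrays was 0.0286, the smallest that 4 arrays against 4 allow. A better rank on all adult than on all P10 arrays was found for 26.1% of the tested miRNAs. miR-29a* ranked 287 to 336 in P10 and 257 to 287 in adult (exact permutation p = 0.0571).

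**Figure D3:**
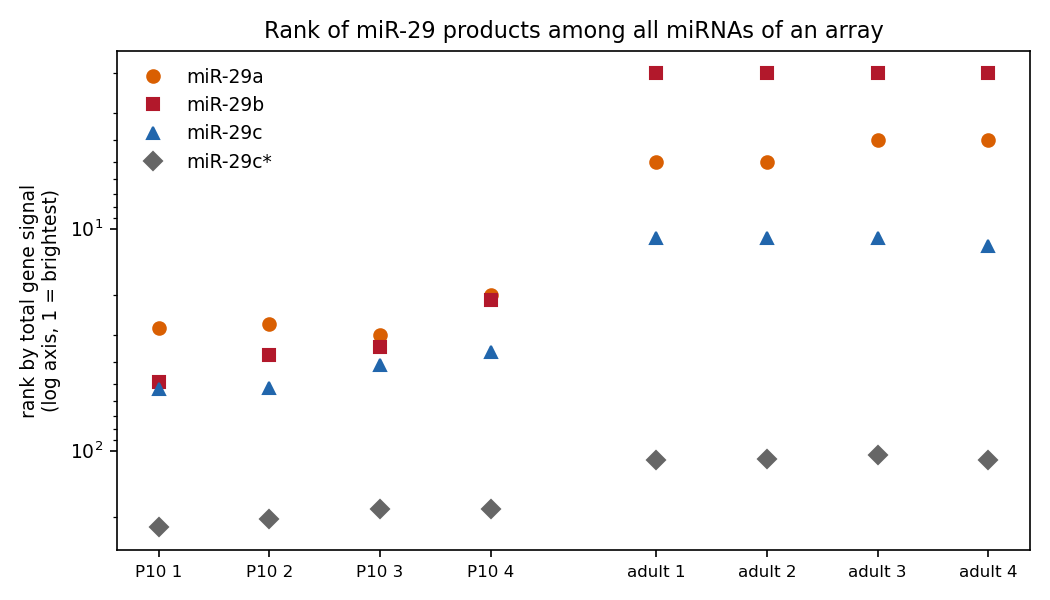
Rank of the 4 tested miR-29 products among the 677 miRNAs of each array by total gene signal, on a log axis with rank 1 at the top. On adult arrays miR-29b holds rank 2 throughout, miR-29a ranks 4 or 5 and miR-29c ranks 11 or 12, while in P10 none of the 3 is above rank 20.

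Each tested product was measured by 2 probes, and the probes of a product moved the same way. For miR-29b they gave log2 differences of 3.47 and 3.59, for miR-29a 2.33 and 2.66, for miR-29c 2.62 and 2.68, and for miR-29c* 1.86 and 2.02. All 8 probes were called (limma adjusted p between 1.62e-05 and 3.26e-05 over 435 probes), where 25.3% of single probes were called higher in adult. The dimmer probe gave the smaller difference in each of the 4 products, by 0.32 for miR-29a, 0.13 for miR-29b, 0.06 for miR-29c and 0.16 for miR-29c*. In each case the within-array ratio of the probes did not overlap between the ages (exact two-sided permutation p = 0.0286, not adjusted), and the dimmer miR-29c* probe was at the floor on 1 array. The gap for miR-29a is the widest and larger than the SD of its P10 replicates, so the size of its increase depends on the probe by up to that much.

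The technical error of a value was read from the repeated features of a probe on 1 array. The coefficient of variation had a median of 5.61% for miR-29b, 6.14% for miR-29a and 5.80% for miR-29c, with single values from 1.97% to 11.1%. For miR-29c* it was 9.29% (4.68% to 11.7%). These values are from arrays on which the probe was well above background. On P10 replicates 1 and 2, where miR-29c* was not, the coefficient was 18.4% and 17.1% for its brighter probe and 98.6% and 15.4% for the dimmer one. For the 3 mature forms the spread between features is small beside the difference between the ages. The number of arrays limits the precision further.

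Whether 1 product changed more than another was tested on the log2 ratio of 2 products within each array, which a common scaling factor does not alter. Of 6 pairs compared, 5 differed between the ages. Each of the 5 had the smallest p that the exact two-sided permutation test allows here, 0.0286 (Benjamini-Hochberg adjusted over the 6 pairs, 0.0343). The ages did not overlap for those 5 pairs, where 50.7% of the 28203 pairs of tested miRNAs had ratios without overlap. The 2 probes of each single product gave the same unadjusted p, with shifts of -0.32 to -0.06. This p therefore does not separate a change between products from a difference in probe response. Under the scaling used here the shifts of the 5 pairs were larger, 0.64 to 1.57 in size. With quantile normalization, which does alter such ratios, no pair passed, and the 3 pairs with miR-29b had an adjusted p of 0.0571. Without adult replicate 3 or 4 the pair miR-29a and miR-29b missed the threshold (changes of -0.91 and -0.92, adjusted p = 0.0686, exact permutation), as did miR-29a and miR-29c* without adult replicate 1 (0.60). The intervals below come from inverting that test and cover 97.1%.

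The signal of mature miR-29b gained on that of both other mature forms. The ratio of miR-29a over miR-29b was 1.06, 0.81, 0.27 and 0.18 in P10 and -0.25, -0.36, -0.43 and -0.39 in adult. It was highest on P10 replicates 1 and 2 and negative on every adult array, a change of -0.93 (interval -1.49 to -0.43). With P10 replicates 3 and 4 alone, the change was -0.58. The ratio of miR-29b over miR-29c, the neighbours in the second gene pair, was 0.62, 0.93, 0.65 and 1.15 in P10 and 1.64, 1.74, 1.86 and 1.77 in adult. All adult ratios were above all P10 ratios, by 0.91 on average (interval 0.50 to 1.24).

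miR-29a and miR-29c, which lie in different gene pairs, were not found to differ in their change. Their ratio was 1.68, 1.74, 0.92 and 1.33 in P10 and 1.40, 1.38, 1.43 and 1.38 in adult. The adult ratios fell inside the P10 range, with a difference of -0.02 (interval -0.36 to 0.51, exact permutation p = 1). A p that misses the threshold does not show equal changes, and differences within that interval could not be told from 0 on these arrays.

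The signals of the arms of the Mir29c hairpin, each read by its own probe, did not change equally under this processing. The ratio of miR-29c over miR-29c* was 4.19, 3.83, 4.39 and 4.38 in P10 and 4.96, 4.85, 4.80 and 4.81 in adult. Every adult ratio was higher, with a difference of 0.66 (interval 0.41 to 1.13). With P10 replicates 3 and 4 alone, the P10 arrays on which miR-29c* was well above background, it was 0.47. This difference varied with the processing. It was 1.83 with normexp background correction (adjusted p = 0.0343, exact permutation). The offset of 50 in that setting lowers the change of a dim product, so normexp ratios over miR-29c* partly reflect the offset. The difference was 0.39 in the authors' value table and 0.13 with quantile normalization (adjusted p = 0.0429 and 0.429, exact permutation). The ratio of miR-29b over miR-29c* rose by 1.57 (interval 1.05 to 1.90), and by 2.80 with normexp. That of miR-29a over miR-29c* rose by 0.64 (interval 0.32 to 1.04). It was 1.93 with normexp and 0.12 in the authors' value table (adjusted p = 0.886, exact permutation). With quantile normalization it turned to -0.30 (adjusted p = 0.429, exact permutation). The ratios were not tested under cyclic loess. Over all probes miR-29c* rose there by 1.49, more than miR-29c (1.14), miR-29b (1.37) and miR-29a (0.84). On bright probes it rose by 2.45, more than miR-29c (2.32) and miR-29a (2.09) but less than miR-29b (3.04).

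**Figure D4:**
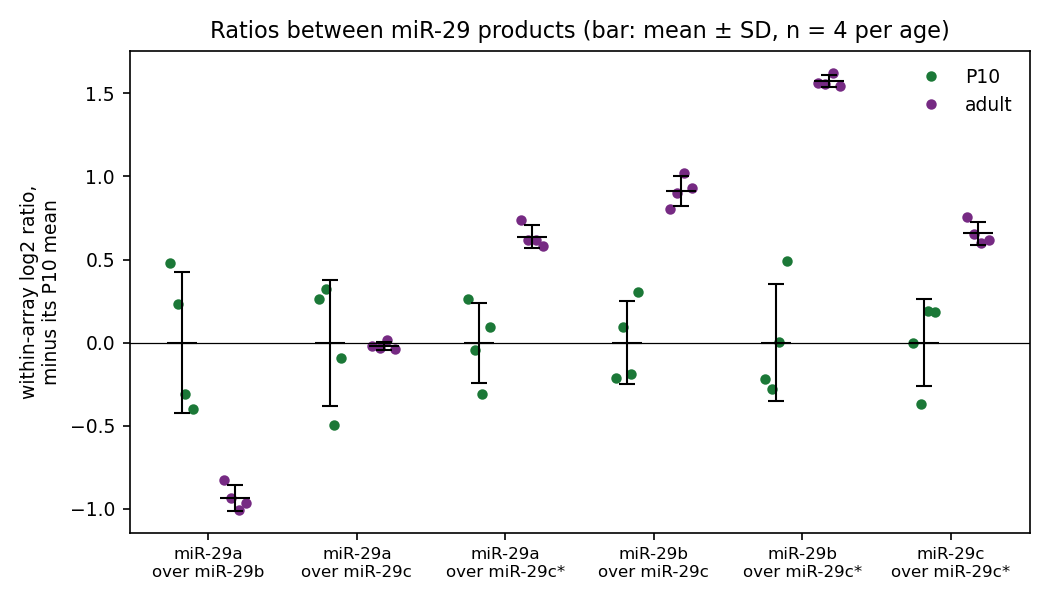
Within-array log2 ratio of each pair of tested miR-29 products, minus the P10 mean of that ratio, by array (P10 green, adult purple, bars mean ± SD, n = 4 per age). The ages separate for every pair except miR-29a over miR-29c, where the difference is -0.02, and miR-29b over miR-29c* shows the widest shift at 1.57.

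As for 89.5% of all tested miRNAs, the SD of each tested miR-29 product was higher over P10 than over adult arrays. In P10 it was 0.50 for miR-29b, 0.24 for miR-29a, 0.33 for miR-29c and 0.22 for miR-29c*, against 0.08, 0.05, 0.03 and 0.05 over adult arrays. P10 replicates 1 and 2 were the arrays with the lowest 75th percentile and the highest acinar sums, and they also held the lowest miR-29b and miR-29c. The other products did not follow this order. miR-29a was lowest on replicate 3 (0.80), and miR-29c* was lower on replicate 3 (-4.51) than on replicate 2 (-4.40). With P10 replicates 3 and 4 alone against the adult arrays, the log2 differences were 3.25 for miR-29b, 2.67 for miR-29a, 2.40 for miR-29c and 1.93 for miR-29c*. All 4 were still called by limma, where 30.7% of the tested miRNAs were called higher in adult.

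The calls of the mature forms were lost in 1 of 24 alternative settings, cyclic loess over all probes, which bends each array's whole intensity curve to the others. There miR-29b was at 1.37 (limma adjusted p = 0.159, range over its alternatives 9.34e-06 to 0.159), miR-29a at 0.84 (0.157, range 3.56e-06 to 0.157) and miR-29c at 1.14 (0.142, range 9.40e-06 to 0.142). In that setting 3.78% of the tested miRNAs were called higher in adult. With the loess curves fitted on bright probes alone the 3 were called. miR-29c* was called in all 23 alternatives in which it could be tested, with its lowest difference, 0.73, under normexp background correction (limma adjusted p = 0.0379, range 1.33e-05 to 0.0379). All differences kept their direction in these settings.

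**Figure D5:**
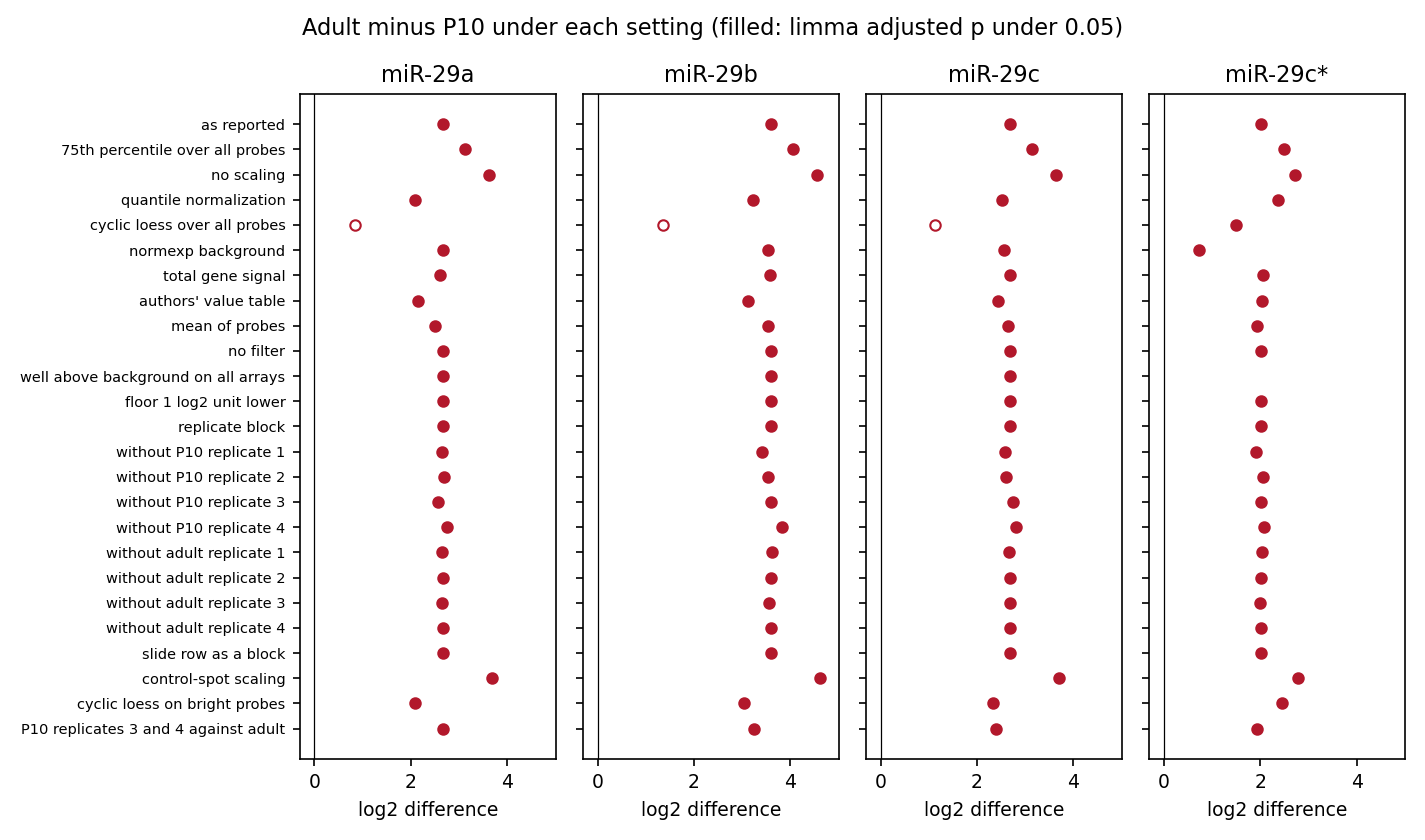
Log2 difference (adult minus P10) of the 4 tested miR-29 products as reported and under each alternative setting, filled where the limma adjusted p is under 0.05. Every point is above 0, the open points are the 3 mature forms under cyclic loess over all probes, and miR-29c* has no point where a miRNA had to be well above background on all arrays.

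In the authors' value table, which holds 1 log2 value per miRNA and array, the family moved in the same direction. All columns there hold nearly the same values once sorted, so a value follows from the rank within its array. Equal values and small SDs there show stable ranks rather than equal intensities. miR-29b went from 10.60 ± 0.73 to 13.71 (SD, n = 4 per age), the same value on each of the 4 adult arrays, miR-29a from 11.12 ± 0.35 to 13.28 ± 0.07, and miR-29c from 10.00 ± 0.42 to 12.44 ± 0.04. miR-29c* went from 5.64 ± 0.39 to 7.68 ± 0.06. The differences were 3.11, 2.16, 2.43 and 2.04. miR-29a*, not tested above, was listed at 4.08 ± 0.32 in P10 and 4.42 ± 0.09 in adult.

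The miRNAs with the profile most like the mature forms were taken as those with the smallest root mean square gap, over the 8 arrays, between log2 profiles each centred on its own mean, out of 234 tested miRNAs outside the family. For miR-29c the nearest were miR-344a-3p (gap 0.26), miR-129-1* (0.28), miR-132 (0.30), miR-204 (0.43) and miR-129-2* (0.45), against a median gap of 1.39. The same 5 were nearest to miR-29a, with gaps of 0.24, 0.38, 0.40, 0.51 and 0.58 (median 1.37). For miR-29b, the nearest were miR-129-1* (0.62), miR-344a-3p (0.66), miR-129 (0.70), miR-129-2* (0.73) and miR-132 (0.75), with a median of 1.85. Within the family the gap was 0.23 between miR-29a and miR-29c, 0.48 between miR-29b and miR-29c and 0.54 between miR-29a and miR-29b. miR-29b thus had no profile as near to it, in the family or outside, as the profiles of miR-29a and miR-29c were to each other. The profiles were not brought to a common size, so a gap also holds differences in the size of the age change. That change was largest for miR-29b under the scaling used here. Several of these miRNAs are dim in P10: miR-344a-3p was at the floor on 3 P10 arrays and miR-132 on 2, so part of the likeness rests on values with no order. The 8 arrays are shared by all profiles, and a difference between the ages makes up most of each.

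The other miRNAs known from islets were mostly higher in adult too, by less than the 4 miR-29 products under the scaling used here. That order did not hold everywhere. miR-153 was at 0.89 and miR-29a at 0.84 with cyclic loess over all probes, and with normexp miR-204 was at 1.43 and miR-29c* at 0.73. Of 23 listed islet miRNAs, 22 were on the array and 18 were tested, of which 12 were called higher and 0 lower in adult (27.3% and 20.2% of all tested miRNAs), with a median difference of 0.77 beside -0.01 over all tested miRNAs. The largest were miR-204 (1.91), miR-7a (1.85), miR-153 (1.61), miR-7a-2* (1.58), miR-7b (1.09) and miR-183 (1.07). The size for miR-7a-2* is uncertain, since it was well above background on only 2 P10 arrays and at the floor on P10 replicate 1. With normexp it was at 0.40. miR-204 was called in 24 of 24 alternatives, miR-7a in 21 and miR-7b in 8, and none of the 6 changed sign. Among the other calls, the sign turned in 4 alternatives for miR-141, in 3 for miR-375 and in 1 each for miR-96 and miR-7a-1*. It did not turn for miR-24 and miR-200c. The 12 calls became 2 higher and 1 lower with cyclic loess over all probes (where 3.78% of the tested miRNAs were called higher), and 8 higher and 3 lower with quantile normalization (where 23.1% of the tested miRNAs were called higher).

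miRNAs linked to matrix and fibrosis biology, for which miR-29 is best known, went in both directions. Of 16 listed, 15 were on the array and 13 were tested, of which 1 was called higher and 5 lower in adult (20.2% of all tested miRNAs were called lower), with a median of -0.35. The 5 were miR-203 (-3.15, well above background on 1 adult array), miR-192 (-2.78), miR-199a-5p (-1.75), miR-214 (-1.64) and miR-199a-3p (-1.62). The 3 named last are products of miR-199a and miR-214 genes, known from mesenchymal cells, and miR-192 is also a gut epithelial marker above. None of the 5 changed sign in any alternative. With control-spot scaling 1 was called lower, where 3.78% of the tested miRNAs were, and the list's median was 0.67 where that of all tested miRNAs was 1.00. The 1 called higher, miR-143 (0.93, limma adjusted p = 0.0485), known from smooth muscle, was called in 5 of 24 alternatives. miR-133b, among the 6 largest differences of the list at 1.16, did not pass.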

How the data were processed

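Per the file headers, the authors' scanner files come from Agilent Feature Extraction 10.7.3.1. They hold intensity values, and the processed signal used here has the local background subtracted by that software. The deposited value table gives 311 miRNAs as log2 values, by a method not given in the sources used here. All 8 columns had a median of 6.54 and, once sorted, the same values within 0.01, and miRNAs were not centred.

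Outlier features (2.34% to 3.65% per array, 0 saturated) were dropped and the rest averaged per probe. Arrays were scaled by the 75th percentile of the 278 probes that stood well above background on all of them. A common floor of -5.51 (log2) was then set before log2 values were formed. For each array, percentile 1 of the probes well above background on that array was taken, and the floor is the median of these. The brightest probe, by mean over arrays, stood for its miRNA. To be tested, a miRNA had to be well above background on 4 or more arrays, which 238 were. limma 3.58.1 (R 4.3.3, lmFit and eBayes, unblocked) compared adult with P10, Benjamini-Hochberg adjustment covered all 238, and the threshold was 0.05. Within-array ratios and ranks were compared with exact permutation tests over the 70 splits of the arrays.

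Named were all miR-29 products, the 5 nearest profiles of each mature form and cell type markers. From the islet and matrix lists, up to 6 tested members were named by size of difference, along with the other islet calls. Members and lists were chosen with earlier results of these data known. Alternatives covered the scaling, the background, the signal used, how probes were combined, the filter, the floor, a replicate block, the value table, and each array left out. The normexp alternative used median signals with an offset of 50 intensity units, which lowers differences of dim miRNAs. Those chosen after seeing the data were slide row as a block, control-spot scaling, cyclic loess on bright probes, P10 replicates 3 and 4 alone, and ranks. The array design uses rn4, so no coordinates are given.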

Additional observations from a re-analysis of the deposited data

How the results depend on the processing

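Of 24 alternatives, miR-29a, miR-29b and miR-29c were called higher in adult in 23, and miR-29c* in all 23 in which it was tested. The exception was cyclic loess over all probes (log2 differences 0.84, 1.37 and 1.14), in which 25 miRNAs were called in place of 113 (9 higher, 16 lower). The cause was not tested. Control-spot scaling called 58 (49 higher, 9 lower) and moved the median of all tested miRNAs to 1.00. The split was 90 to 34 with the percentile over all probes (median 0.45), 61 to 17 without scaling (0.94) and 33 to 47 with normexp (-0.28), against 65 to 48 as reported.

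Leaving out 1 array in turn gave 2.56 to 2.75 for miR-29a, 3.42 to 3.82 for miR-29b, 2.57 to 2.80 for miR-29c and 1.92 to 2.08 for miR-29c*, and 84 to 138 calls in all. With cyclic loess miR-29c* rose more than each mature form over all probes, and more than miR-29a and miR-29c on bright probes. The ratio of miR-29a over miR-29c* reversed to -0.30 with quantile normalization. Without adult replicate 1 that ratio, and without adult replicate 3 or 4 the ratio of miR-29a over miR-29b, missed the threshold (0.60, -0.91 and -0.92, adjusted p = 0.0686, exact permutation), and with P10 replicates 3 and 4 alone no pair can pass (smallest exact p adjusted, 0.0667).

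Same-numbered arrays of the ages had deviations that correlated at 0.18, -0.09, 0.48 and -0.23. The labels name no pairing, and with 4 arrays per age these values cannot decide whether there was one. With the replicate number as a block, differences were unchanged for the 4 products (2.66, 3.59, 2.68 and 2.02, limma adjusted p = 0.000906 each) and 95 miRNAs were called. With slide row as a block 90 were called and the 4 had an adjusted p of 0.00164. Signal over background limits miR-29c* in P10 and the 3 untested products. Slide column, sex and age cannot be told apart.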
